A study of Homo sapiens with 9 samples.

Results

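The MHC class I antigen presentation genes were followed as 9 named genes in PANC-1, a cell line derived from a human pancreatic ductal carcinoma. They are the heavy chain genes HLA-B, HLA-C and HLA-E, the light chain gene B2M, the peptide transporter genes TAP1 and TAP2, the peptide editor gene TAPBP, and the immunoproteasome subunit genes PSMB8 and PSMB9. Members were found by matching the human Entrez gene number of each row of the deposited table to its symbol. This gave 8 of the 9 genes among 16750 rows, and HLA-C was not analysed here. Clones of PANC-1 had been transduced with lentivirus and kept under puromycin, and they carried SLC22A10 (SLC22A10_OE), SLC22A15 (SLC22A15_OE) or an empty vector (vector). SLC22A10 and SLC22A15 belong to a family of organic ion transporters of the plasma membrane. RNA of each of the 3 groups was sequenced in 3 strand-specific libraries after removal of ribosomal RNA. In each group the library labels end in A1, A2 and B1, and they do not state what the letters stand for. Each group is transduced clones of 1 cell line, and nothing in the labels says that its libraries came from separate cultures. P-values therefore describe the spread among these libraries alone, and that spread may be technical.

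Class I molecules carry peptides of the cell's own proteins to its surface, where T cells and natural killer cells inspect them. The proteasome cuts proteins into peptides, the TAP1 and TAP2 proteins together pump them into the endoplasmic reticulum, and tapasin, the product of TAPBP, helps load them onto a heavy chain held by beta-2 microglobulin, the product of B2M. Interferons induce most of these genes in epithelial cells, and they bring in inducible proteasome subunits in place of standard ones, among them the products of PSMB8 and PSMB9. Lowered class I presentation is a known trait of many carcinomas.

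The libraries held between 28.4 and 42.9 M reads (M for 1000000), as recovered from the deposited CPM (reads scaled to a library of 1000000). The transduced genes matched the labels. SLC22A10 had 80.5, 91.4 and 84.4 CPM in the SLC22A10_OE libraries, against 1 read in all in the vector libraries and 0 reads in the SLC22A15_OE libraries. SLC22A15 had 78.3, 73.3 and 76.1 CPM in the SLC22A15_OE libraries, against 6.52, 6.36 and 5.46 CPM in the vector libraries. In 1 library of each group, which were SLC22A10_OE 3, SLC22A15_OE 1 and vector 1, the mitochondrial ribosomal RNAs took 0.00958% to 0.0151% of the reads, against 0.0454% to 0.0843% in the other 6. The same 6 members passed the test in SLC22A10_OE against vector, in the same directions, when these 3 libraries were left out, a check chosen after seeing the data. Of 10 ductal and epithelial marker genes looked for, 6 had values, and EPCAM and CDH1 were not analysed here. Their summed level was 557 to 618 CPM in SLC22A10_OE, 295 to 330 CPM in SLC22A15_OE and 440 to 479 CPM in vector. Single markers differed in direction. KRT19 had 216 ± 16.8 CPM in SLC22A10_OE and 73.2 ± 7.65 CPM in vector (SD, n = 3 each). KRT18 had 99.2 ± 3.23 CPM in SLC22A10_OE and 162 ± 1.47 CPM in vector. By the limma test described below, 3 of 5 tested markers were higher in SLC22A10_OE than in vector and 1 was lower. Of all genes, 34.7% were higher and 32.5% lower. KRT7 stayed under 1 CPM in every library.

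In SLC22A10_OE the heavy and light chain genes, tapasin and the immunoproteasome gene PSMB9 were higher than in vector, while TAP2 was lower and TAP1 showed no difference past the threshold. The test was limma on log2(CPM + 1), called at a Benjamini-Hochberg adjusted p under 0.05 over 14554 genes, and it covered 7 members, since PSMB8 stayed under 1 CPM in all 9 libraries. It called 5 members higher and 1 lower. PSMB9 was among the 5, though it reached 1 CPM only in the 6 overexpressing libraries and so entered the test through them. The same test called 67.2% of all genes, 34.7% higher and 32.5% lower, so a call by itself was common in this comparison. Of the 8 members, 6 had SLC22A10_OE libraries all above and 1 all below the vector libraries, where 69.2% of all genes had groups that did not overlap, 35.4% with SLC22A10_OE higher and 33.8% with it lower. The median log2 fold change of the 8 measured members was 0.68, against 0.0046 for all genes tested. In bulk RNA of this kind, fewer cells of a type and less RNA per cell cannot be told apart.

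**Figure D1:**
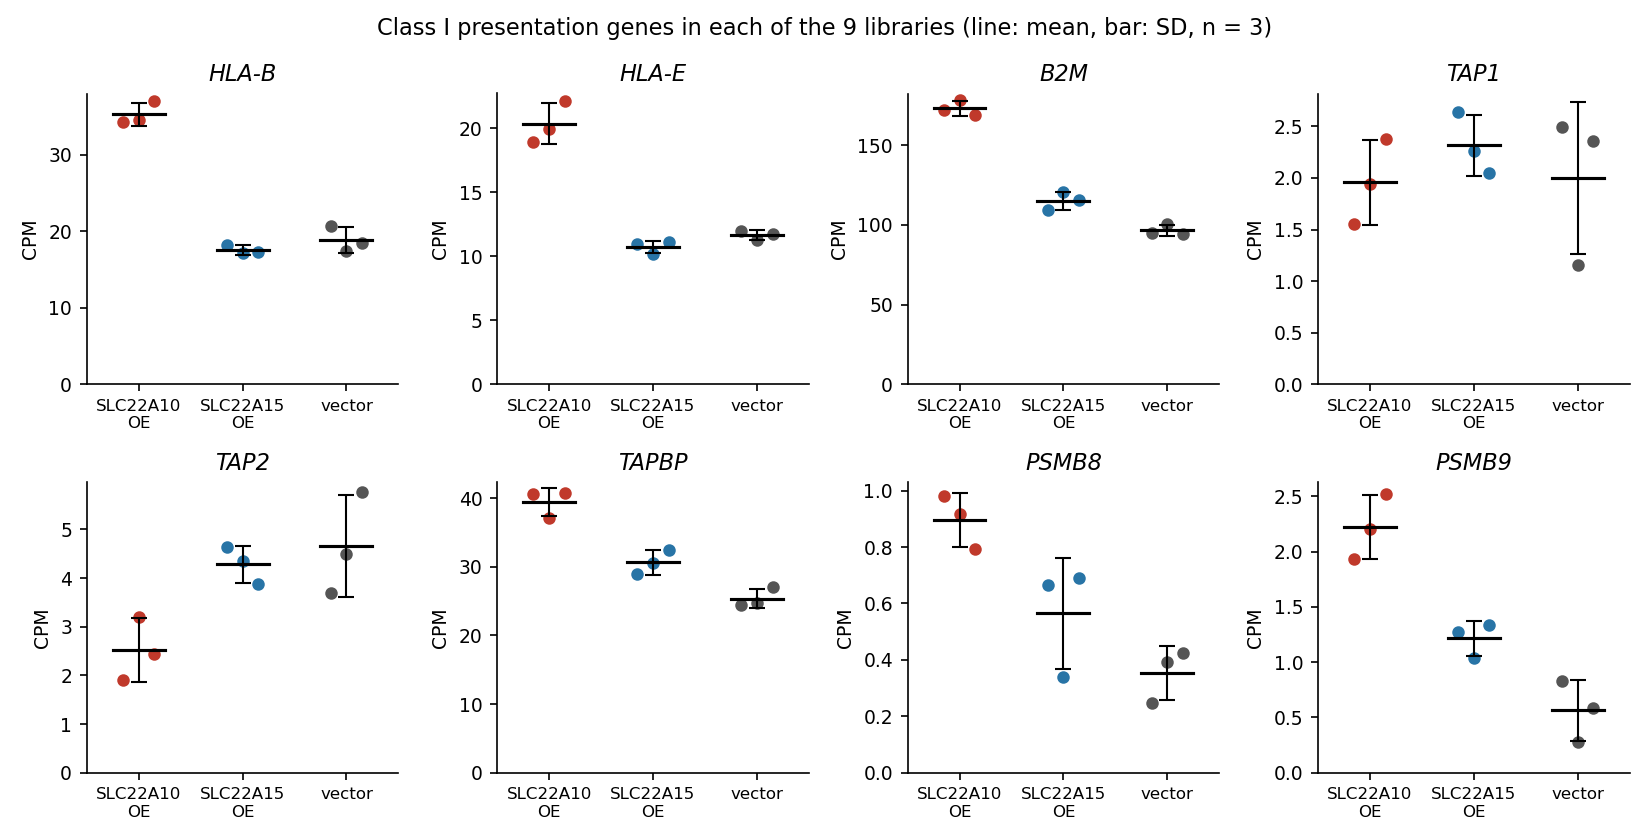
Level of each of the 8 measured members in CPM (vertical axis, from 0) in the SLC22A10_OE, SLC22A15_OE and vector libraries, 1 point per library, with the mean as a line and the SD as a bar (n = 3). The SLC22A10_OE points of HLA-B, HLA-E, B2M, TAPBP and PSMB9 all lie above the vector points, those of TAP2 all lie below, and those of TAP1 overlap.

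Start regions of the members are shown because genes that moved together and genes that did not can be read side by side. Sequences are from RefSeq on GRCh38.p14, 250 bases before to 50 after a gene's start, on the strand of the gene, and 7 of the 8 measured members matched an entry. The entries lie at chr15:44711267-44711566 (plus strand) for B2M, chr6:31357130-31357429 (minus) for HLA-B and chr6:33314029-33314328 (minus) for TAPBP. They lie at chr6:32853655-32853954 (minus) for the upstream one of the TAP1 entries, chr6:32853942-32854241 (plus) for PSMB9 and chr6:32838690-32838989 (minus) for TAP2. Capitals mark letters that match, on either strand, the interferon-stimulated response element searched as GAAANNGAAA, the gamma-activated site searched as TTCNNNGAA or the kB consensus of NF-kB factors. Matches of 1 motif may overlap each other.
B2M: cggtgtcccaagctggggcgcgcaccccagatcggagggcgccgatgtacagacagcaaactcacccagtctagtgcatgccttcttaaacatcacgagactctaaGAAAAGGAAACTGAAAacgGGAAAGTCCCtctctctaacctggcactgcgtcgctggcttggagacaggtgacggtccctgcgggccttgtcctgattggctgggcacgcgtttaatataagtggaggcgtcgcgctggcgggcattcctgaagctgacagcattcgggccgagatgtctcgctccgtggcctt
HLA-B: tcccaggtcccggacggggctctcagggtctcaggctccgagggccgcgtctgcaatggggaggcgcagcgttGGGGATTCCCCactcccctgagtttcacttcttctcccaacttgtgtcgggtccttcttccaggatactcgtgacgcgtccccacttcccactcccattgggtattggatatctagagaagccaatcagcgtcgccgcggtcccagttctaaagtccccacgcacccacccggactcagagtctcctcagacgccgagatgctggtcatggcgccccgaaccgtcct
TAPBP: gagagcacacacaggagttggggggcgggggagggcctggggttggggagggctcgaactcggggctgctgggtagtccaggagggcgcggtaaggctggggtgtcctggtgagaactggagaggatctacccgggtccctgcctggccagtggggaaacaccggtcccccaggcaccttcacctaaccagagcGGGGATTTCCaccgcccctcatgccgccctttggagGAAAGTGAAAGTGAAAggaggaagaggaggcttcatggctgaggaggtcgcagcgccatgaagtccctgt
TAP1: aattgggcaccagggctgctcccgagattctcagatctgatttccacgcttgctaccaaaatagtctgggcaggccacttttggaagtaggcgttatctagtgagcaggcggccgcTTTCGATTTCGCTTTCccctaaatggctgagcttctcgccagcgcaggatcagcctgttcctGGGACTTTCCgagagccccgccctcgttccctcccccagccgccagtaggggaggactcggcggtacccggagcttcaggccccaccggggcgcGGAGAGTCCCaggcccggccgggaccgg
PSMB9: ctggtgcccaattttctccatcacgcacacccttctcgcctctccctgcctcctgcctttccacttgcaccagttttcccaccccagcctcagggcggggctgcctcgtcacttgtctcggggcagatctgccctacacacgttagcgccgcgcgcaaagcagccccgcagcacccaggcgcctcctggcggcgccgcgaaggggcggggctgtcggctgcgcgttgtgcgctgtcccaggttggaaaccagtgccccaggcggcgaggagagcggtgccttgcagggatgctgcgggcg
TAP2: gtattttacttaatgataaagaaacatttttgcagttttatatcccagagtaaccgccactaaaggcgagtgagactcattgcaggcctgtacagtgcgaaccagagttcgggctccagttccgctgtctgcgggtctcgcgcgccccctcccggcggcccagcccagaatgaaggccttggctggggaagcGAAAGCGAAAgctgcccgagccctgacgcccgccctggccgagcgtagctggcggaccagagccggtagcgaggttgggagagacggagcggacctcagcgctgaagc

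B2M and TAPBP each held the GAAANNGAAA letters at overlapping positions, at -144 and -138 in B2M and at -20 and -14 in TAPBP, counted from the start to the first base of the match. TAP1 held them at -134 and -128, and TAP2 at -58. Of 35116 RefSeq start regions of the same length, 3.57% held these letters, 7.66% the TTCNNNGAA letters and 11.3% the kB consensus. The kB consensus matched in B2M, HLA-B, TAPBP and TAP1, and PSMB9 held none of the 3 motifs in this window. The TTCNNNGAA letters stood at -189 in the downstream one of the TAP1 entries and at -65 in the downstream one of the PSMB8 entries, which also held the GAAANNGAAA letters at -4. The GAAANNGAAA letters did not match in the windows of HLA-B and PSMB9. Only exact letters within each window were counted, so variant letters and matches farther out do not show. The TAP1 matches of these letters lie between the start sites of TAP1 and PSMB9, outside the PSMB9 window. Any link of the letters to the direction of change was not tested. The CCAAT letters, found in 34.6% of start regions, stood in those of B2M, HLA-B, TAP1 and PSMB9. A match of letters is a description of the reference sequence and not a bound site.

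HLA-B encodes a classical heavy chain, the part of the class I molecule that binds the peptide. It had 34.3, 34.6 and 37.0 CPM in the SLC22A10_OE libraries, 18.3, 17.1 and 17.3 CPM in the SLC22A15_OE libraries and 20.7, 17.4 and 18.4 CPM in the vector libraries. Every SLC22A10_OE library stood above every other library, and the SLC22A15_OE and vector ranges overlapped. The log2 fold change in SLC22A10_OE against vector was 0.87 ± 0.075 (SE), with an adjusted p of 4.0e-07 from limma. Of all genes tested, 8.29% had a larger log2 fold change in that comparison. Against vector, SLC22A15_OE had a log2 fold change of -0.09, with a 95% confidence interval of -0.26 to 0.07 and an adjusted p of 0.431 from limma.

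HLA-E encodes a non-classical heavy chain that natural killer cells read through their inhibitory and activating receptors. Its level was 19.0, 20.0 and 22.1 CPM in the SLC22A10_OE libraries, 10.9, 10.2 and 11.1 CPM in the SLC22A15_OE libraries and 12.0, 11.3 and 11.8 CPM in the vector libraries. SLC22A10_OE stood apart on the high side, and the SLC22A15_OE libraries all lay slightly below the vector libraries. HLA-E changed by 0.75 ± 0.080 (SE) on the log2 scale in SLC22A10_OE against vector, with an adjusted p of 2.88e-06 from limma. For SLC22A15_OE against vector the value was -0.11, with a 95% confidence interval of -0.28 to 0.06, and the adjusted p of 0.375 from limma did not pass. Non-overlap of that kind was common, since 34.7% of all genes tested had groups that did not overlap in SLC22A15_OE against vector, 18.1% with SLC22A15_OE higher and 16.6% with it lower.

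B2M, the light chain shared by all class I molecules, had the most reads of the members. It had 172, 178 and 169 CPM in the SLC22A10_OE libraries, 109, 120 and 116 CPM in the SLC22A15_OE libraries and 94.7, 101 and 94.3 CPM in the vector libraries. The 3 groups did not overlap, and B2M was higher in both overexpressing lines. The log2 fold change against vector was 0.84 ± 0.050 (SE) in SLC22A10_OE, with an adjusted p of 1.52e-08, and 0.25 ± 0.050 in SLC22A15_OE, with an adjusted p of 0.00309, both from limma. HLA-B and HLA-E did not pass the test in SLC22A15_OE where B2M did, and the difference between these genes was not tested.

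HLA genes are variable between people and similar to one another, so a read of this cell line may be placed on a related gene. In GENCODE release 29, no stretch of 150 bases, the read length, of the HLA-B or HLA-E principal transcript stood in the transcript of another gene. How reads with several matches were treated is not stated in the labels or headers, and the split of reads among HLA genes is uncertain.

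TAP1 and TAP2 encode the subunits of the peptide transporter, and both were at a few CPM. TAP2 had 1.91, 3.21 and 2.45 CPM in the SLC22A10_OE libraries, 4.64, 4.34 and 3.87 CPM in the SLC22A15_OE libraries and 3.69, 4.50 and 5.78 CPM in the vector libraries. The SLC22A10_OE libraries were the lowest of all 9, and the other groups overlapped each other. The log2 fold change in SLC22A10_OE against vector was -0.68 ± 0.15 (SE), with an adjusted p of 0.0015 from limma. Pooled over libraries this rested on 254 reads in SLC22A10_OE and 498 in vector, a depth-corrected ratio of 0.532 with a 95% interval of 0.455 to 0.620 that covers counting error only. In GENCODE release 29, 79.4% of the 150-base stretches of the TAP2 principal transcript also stood in a transcript of AL669918.1, so counting could have divided its reads.

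TAP1 had 1.55, 1.95 and 2.37 CPM in the SLC22A10_OE libraries, 2.64, 2.26 and 2.05 CPM in the SLC22A15_OE libraries and 2.49, 1.15 and 2.36 CPM in the vector libraries. All 3 groups overlapped, and the lowest value was that of vector 2. The log2 fold change in SLC22A10_OE against vector was 0.0018 ± 0.17 (SE), with a 95% confidence interval of -0.38 to 0.38 and an adjusted p of 0.994 from limma. Without vector 2 it was -0.22. The interval holds changes of up to 0.38 in either direction, so the data do not show that TAP1 stayed level.

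TAPBP encodes tapasin, which bridges the transporter and the empty class I molecule. Its level was 40.6, 37.1 and 40.7 CPM in the SLC22A10_OE libraries, 28.9, 30.5 and 32.5 CPM in the SLC22A15_OE libraries and 24.4, 24.7 and 27.0 CPM in the vector libraries. The 3 groups did not overlap. Against vector the log2 fold change was 0.62 ± 0.069 (SE) in SLC22A10_OE, with an adjusted p of 4.54e-06, and 0.26 ± 0.069 in SLC22A15_OE, with an adjusted p of 0.0160, both from limma. The call in SLC22A15_OE was lost without SLC22A15_OE 3, where the log2 fold change was 0.22 and the adjusted p 0.0795, and without vector 2, where they were 0.25 and 0.0533. The end of TAPBP overlaps RGL2, a gene for a regulator of Ras-family signalling, which had 10.7 ± 0.806 CPM in SLC22A10_OE, 7.21 ± 0.572 CPM in SLC22A15_OE and 6.07 ± 0.430 CPM in vector (SD, n = 3 each). Whether counting used strand is not stated in the labels or headers, and what RGL2 reads add to TAPBP was not tested.

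PSMB9 encodes an inducible catalytic subunit that takes the place of the PSMB6 product. It had 1.94, 2.20 and 2.52 CPM in the SLC22A10_OE libraries, 1.27, 1.04 and 1.34 CPM in the SLC22A15_OE libraries and 0.831, 0.281 and 0.583 CPM in the vector libraries. The 3 groups did not overlap. PSMB9 reached 1 CPM only in the 6 overexpressing libraries, so it entered the test through the groups in which it was high. PSMB9 had a log2 fold change of 1.05 ± 0.14 (SE) in SLC22A10_OE against vector, with an adjusted p of 2.2e-05 from limma. That scale understates the change of a gene this low, whose mean CPM was 3.93 times as high in SLC22A10_OE as in vector. In SLC22A15_OE against vector the log2 fold change was 0.51 ± 0.14 (SE), with an adjusted p of 0.0194 from limma, which did not pass when SLC22A15_OE 1 (0.0521), SLC22A15_OE 3 (0.0717), vector 2 (0.0866) or vector 3 (0.0508) was left out.

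PSMB8 encodes the inducible subunit that replaces the PSMB5 product, and it was the lowest member. It had 0.982, 0.916 and 0.791 CPM in the SLC22A10_OE libraries, 0.667, 0.338 and 0.691 CPM in the SLC22A15_OE libraries and 0.246, 0.394 and 0.424 CPM in the vector libraries. SLC22A10_OE lay above both other groups, which overlapped each other. The two-sided exact permutation p was 0.1 for SLC22A10_OE against vector, and 3 libraries against 3 can reach no smaller p. The groups held 92 reads in SLC22A10_OE, 64 in SLC22A15_OE and 38 in vector, and the depth-corrected ratio of SLC22A10_OE to vector was 2.52, with a 95% interval of 1.71 to 3.79 for counting error only. edgeR's quasi-likelihood test on recovered reads gave PSMB8 a log2 fold change of 1.32 in that comparison, with an adjusted p of 0.00544. The authors' deposited table lists an FDR of 0.00535 for it. The antisense gene PSMB8-AS1 overlaps PSMB8 and TAP1 and had 26 reads in SLC22A10_OE, 29 in SLC22A15_OE and 12 in vector, and its part in those levels was not tested.

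**Figure D2:**
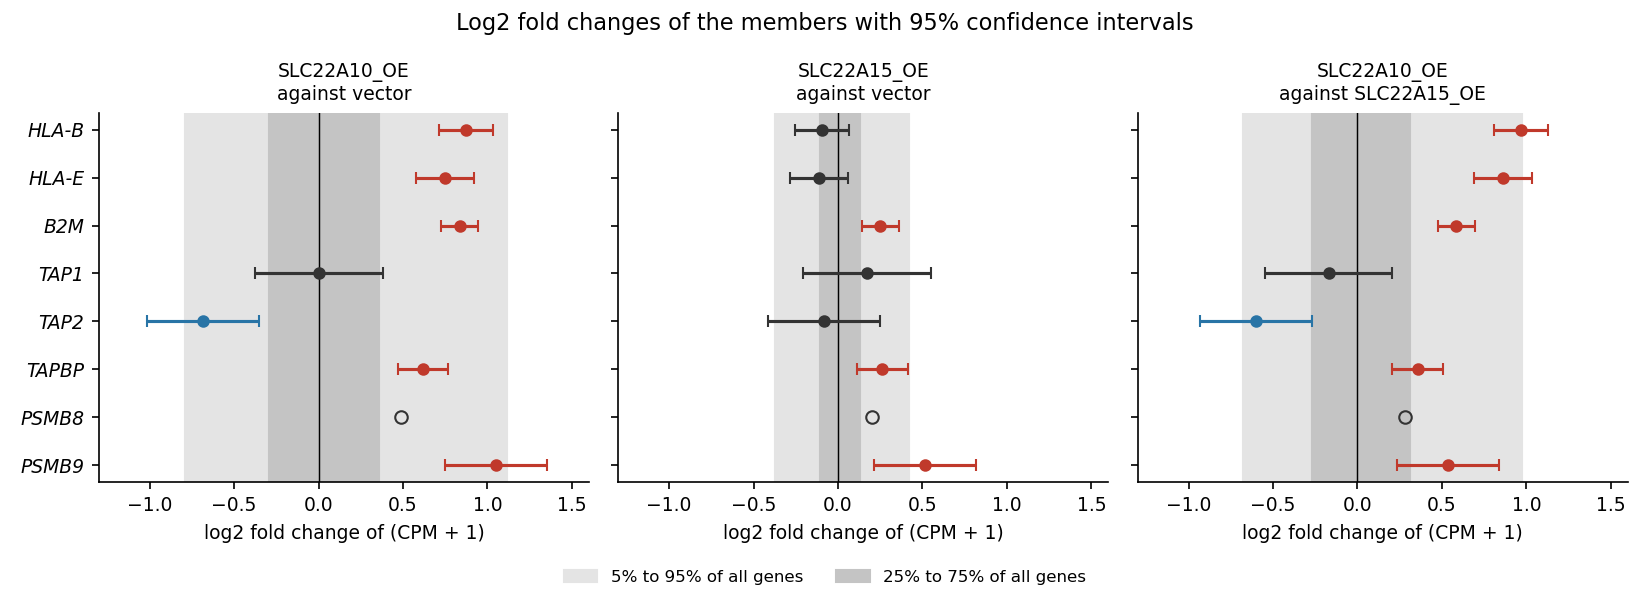
Log2 fold change of (CPM + 1) on the horizontal axis for each member, with its 95% confidence interval, in SLC22A10_OE against vector, SLC22A15_OE against vector and SLC22A10_OE against SLC22A15_OE. Red and blue points passed the test as higher and lower, dark points did not, open circles (PSMB8) are untested differences, and grey bands hold the middle of all genes tested, which is wider in the SLC22A10_OE panels.

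In SLC22A15_OE against vector, 3 of the 7 tested members were higher (B2M, TAPBP and PSMB9) and 0 were lower, where the same test called 20.4% of all genes, 10.8% higher and 9.58% lower. PSMB9 entered the main test only through the overexpressing libraries. Limma without a filter on low values, and edgeR, each called 3 higher and 0 lower. With SLC22A15_OE 3 or vector 2 left out, only 1 member, B2M, was called in SLC22A15_OE against vector. The median log2 difference of the 8 members was 0.19, against 0.0056 for all genes tested. TAP1 was at 0.17 with a 95% confidence interval of -0.20 to 0.55, and TAP2 was at -0.09 with an interval of -0.42 to 0.25. Both comparisons with vector share its 3 libraries, so their values are set side by side here and not tested for likeness.

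Set directly against each other, SLC22A10_OE was higher than SLC22A15_OE in 5 of 7 tested members and lower in 1, where the test called 62.9% of all genes, 32.1% higher and 30.8% lower. The log2 fold change in SLC22A10_OE against SLC22A15_OE was 0.97 for HLA-B, with an adjusted p of 2.58e-07 from limma. It was 0.86 for HLA-E (adjusted p 1.21e-06), 0.59 for B2M (6.57e-07) and 0.36 for TAPBP (6.01e-04) in the same limma fit. PSMB9 differed by 0.54, with an adjusted p of 0.00459, and TAP2 by -0.60, with an adjusted p of 0.00416, both from limma. Groups did not overlap for 7 of the 8 members, 6 of them with SLC22A10_OE higher, where 67.4% of all genes had groups that did not overlap, 34.2% with SLC22A10_OE higher and 33.3% with it lower. TAP1 differed by -0.17, with a 95% confidence interval of -0.55 to 0.21 and an adjusted p of 0.410 from limma. The median over the 8 members was 0.45, against 0.0020 for all genes tested.

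Levels of different genes were compared per length of the principal transcript, in CPM per kb. In SLC22A10_OE the order was B2M at 102 ± 2.74, HLA-B at 22.8 ± 0.962, TAPBP at 20.9 ± 1.06, HLA-E at 7.83 ± 0.620 and PSMB9 at 2.84 ± 0.371 CPM per kb (SD, n = 3). TAP2 followed at 1.01 ± 0.260, PSMB8 at 0.798 ± 0.086 and TAP1 at 0.661 ± 0.139 CPM per kb (SD, n = 3), neighbours that lay within their spread of each other. In vector the order was B2M at 56.6 ± 2.12, TAPBP at 13.4 ± 0.754, HLA-B at 12.2 ± 1.10, HLA-E at 4.49 ± 0.147 and TAP2 at 1.87 ± 0.422 CPM per kb (SD, n = 3). PSMB9 at 0.723 ± 0.352, TAP1 at 0.676 ± 0.249 and PSMB8 at 0.316 ± 0.085 CPM per kb came last in vector (SD, n = 3). PSMB9 thus stood above both transporter genes in SLC22A10_OE and below TAP2 in vector. Divided by the summed length of all annotated exons, HLA-B came before TAPBP and TAP1 before PSMB9 in vector, so those neighbours have no fixed order.

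Inducible subunits were set against the standard subunits they replace. PSMB9 stood at 2.57% ± 0.286 of PSMB6 per kb in SLC22A10_OE, 1.42% ± 0.214 in SLC22A15_OE and 0.615% ± 0.265 in vector (SD, n = 3 each). PSMB8 stood at 0.779% ± 0.111 of PSMB5 in SLC22A10_OE, 0.475% ± 0.168 in SLC22A15_OE and 0.290% ± 0.086 in vector. Divided by the summed length of all annotated exons, PSMB9 over PSMB6 was 1.11% in SLC22A10_OE, 0.614% in SLC22A15_OE and 0.266% in vector, and PSMB8 over PSMB5 was 0.398% in SLC22A10_OE, 0.243% in SLC22A15_OE and 0.148% in vector. On either length PSMB8 and PSMB9 stayed far below their standard counterparts. PSMB10, the third inducible catalytic subunit and no member of the list, stood at 24.5% ± 1.29 of PSMB7 in SLC22A10_OE, 23.7% ± 1.34 in SLC22A15_OE and 14.3% ± 1.18 in vector. The groups did not overlap for PSMB9 over PSMB6, while for PSMB10 over PSMB7 the overexpressing lines overlapped each other and both lay above vector.

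**Figure D3:**
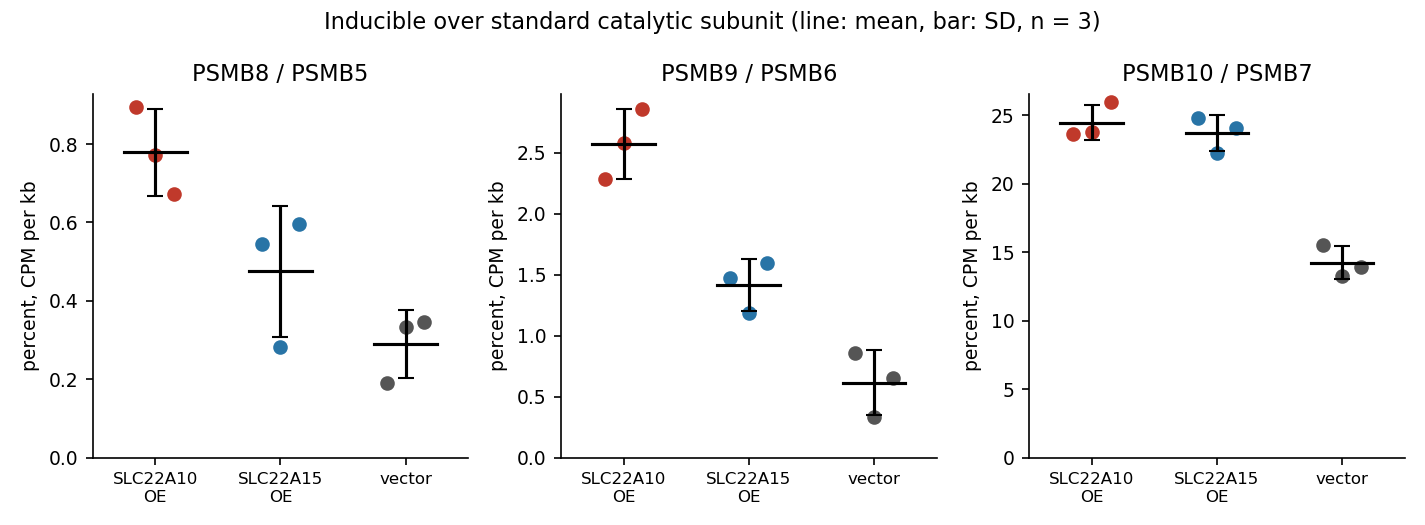
Level of each inducible proteasome subunit as a percentage of the standard subunit it replaces, both in CPM per kb, in each library of SLC22A10_OE, SLC22A15_OE and vector, with the mean as a line and the SD as a bar (n = 3). PSMB8 and PSMB9 stay under 3% of their counterparts in all libraries, and PSMB10 lies between 13.3% and 26.0%.

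TAP1 and PSMB9 are read in opposite directions from start sites 488 bases apart, at chromosome 6 positions 32853704 and 32854192. Their start regions share 13 bases. PSMB9 differed between SLC22A10_OE and vector while TAP1 did not pass the test, and the difference between the genes was not tested.

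All 5 tested genes of a list of further class I and class I-like heavy chains were higher in SLC22A10_OE than in vector, where 34.7% of all genes were, with a median log2 fold change of 0.96. FCGRT, the heavy chain of the neonatal receptor for immunoglobulin G, had a log2 fold change of 1.57, HFE, which regulates iron uptake, one of 1.19, and MR1, which shows microbial metabolites to T cells, one of 0.96. These heavy chains also pair with beta-2 microglobulin. In SLC22A15_OE against vector 1 of the 5 was higher and 0 were lower, where 10.8% of all genes were higher.

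Of 10 genes for peptide loading and trimming, 7 were higher and 1 was lower in SLC22A10_OE than in vector, where 34.7% of all genes were higher and 32.5% lower. Their median log2 fold change was 0.24. ERAP2, which trims peptides in the endoplasmic reticulum, had 62.2 ± 4.01 CPM in SLC22A10_OE and 23.4 ± 1.97 CPM in vector (SD, n = 3 each), a log2 fold change of 1.38 with an adjusted p of 4.86e-09 from limma. The chaperones CALR at 0.70, PDIA3 at 0.50 and HSPA5 at 0.28 were higher too. CALR and PDIA3 sit with tapasin in the peptide loading complex. Of the same 10 genes, 2 were higher in SLC22A15_OE than in vector and 0 were lower, against 10.8% and 9.58% of all genes.

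Of 6 genes for proteasome activators, an assembly factor and the inducible subunit PSMB10, 3 were higher and 3 lower in SLC22A10_OE than in vector. Among all genes, 34.7% were higher and 32.5% lower. The PA28 activator genes PSME1, with a log2 fold change of 1.04, and PSME2, with 0.60, were higher, as was PSMB10 with 0.48. PSME3, which forms a nuclear activator, was lower with -0.71, as were the activator gene PSME4 with -0.41 and the assembly factor gene POMP with -0.30. Of the 3 standard catalytic subunits, PSMB7 was lower with -0.28 and 0 were higher. Of 11 other subunits of the core, 1 was higher and 6 were lower, against the same shares of all genes, with a median of -0.13, and PSMB2 had -0.32. PSMB10 and POMP were named after their values were seen. With libraries centred on their medians, which moved all log2 fold changes of SLC22A10_OE against vector by -0.12, all 3 standard catalytic subunits were lower and 0 of the 11 others were higher. With low mitochondrial ribosomal RNA as a covariate, 2 of the 3 were lower.

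Of 29 tested genes of a list of class I transcription factors and interferon signalling, 9 were higher and 10 lower in SLC22A10_OE than in vector, with a median of -0.036. These counts were near the shares of all genes, 34.7% higher and 32.5% lower. IRF1, which binds interferon response elements of class I genes, had 41.1 ± 1.92 CPM in SLC22A10_OE and 21.7 ± 0.189 CPM in vector (SD, n = 3 each), a log2 fold change of 0.89 with an adjusted p of 3.62e-08 from limma. STAT2 at 0.75 and RFX5 at 0.45 were higher, and NFYA, a subunit of the factor that binds CCAAT letters, was lower at -0.51. NLRC5, the transactivator of class I genes, was at 0.46 with an adjusted p of 4.48e-04 from limma. NLRC5 was named after its value was seen.

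Interferon-stimulated effector genes, described here only beside the members, were higher in SLC22A10_OE than in vector in 32 of 34 tested and lower in 0, where 34.7% of all genes were higher. Their median log2 fold change was 1.59. BST2, IFI44, XAF1, OAS2 and RSAD2 reached 1 CPM only in the SLC22A10_OE libraries, and OAS1 only there and in SLC22A15_OE 2. These genes entered the test through the group in which they were high. OASL, at 4.30, lay far above every member, though it reached 1 CPM only in the overexpressing libraries and so entered the test through them. Of the 34, in SLC22A15_OE against vector, 22 were higher and 0 were lower, with a median of 0.39, where 10.8% of all genes were higher.

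Of 13 tested genes for surface molecules that T cells and natural killer cells read along with class I, 5 were higher and 6 lower in SLC22A10_OE than in vector. Shares of all genes were 34.7% higher and 32.5% lower, so these counts do not set the list apart. ULBP1, a ligand of the activating receptor NKG2D, was at 1.90 and NECTIN2, a ligand of DNAM-1 and TIGIT, at 0.82. The poliovirus receptor gene PVR was at -0.86 and CD274, which encodes PD-L1, at -1.33. CD274 had 0.978 ± 0.070 CPM in SLC22A10_OE and 4.01 ± 0.628 CPM in vector (SD, n = 3 each), with an adjusted p of 8.1e-07 from limma. Of class II presentation genes only 3 were tested, with the lysosomal reductase IFI30 higher at 1.55, the invariant chain CD74 lower at -0.92 and the class II transactivator CIITA at -0.30 and not past the test unless vector 2 was left out, or libraries were centred or fitted with that covariate.

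**Figure D4:**
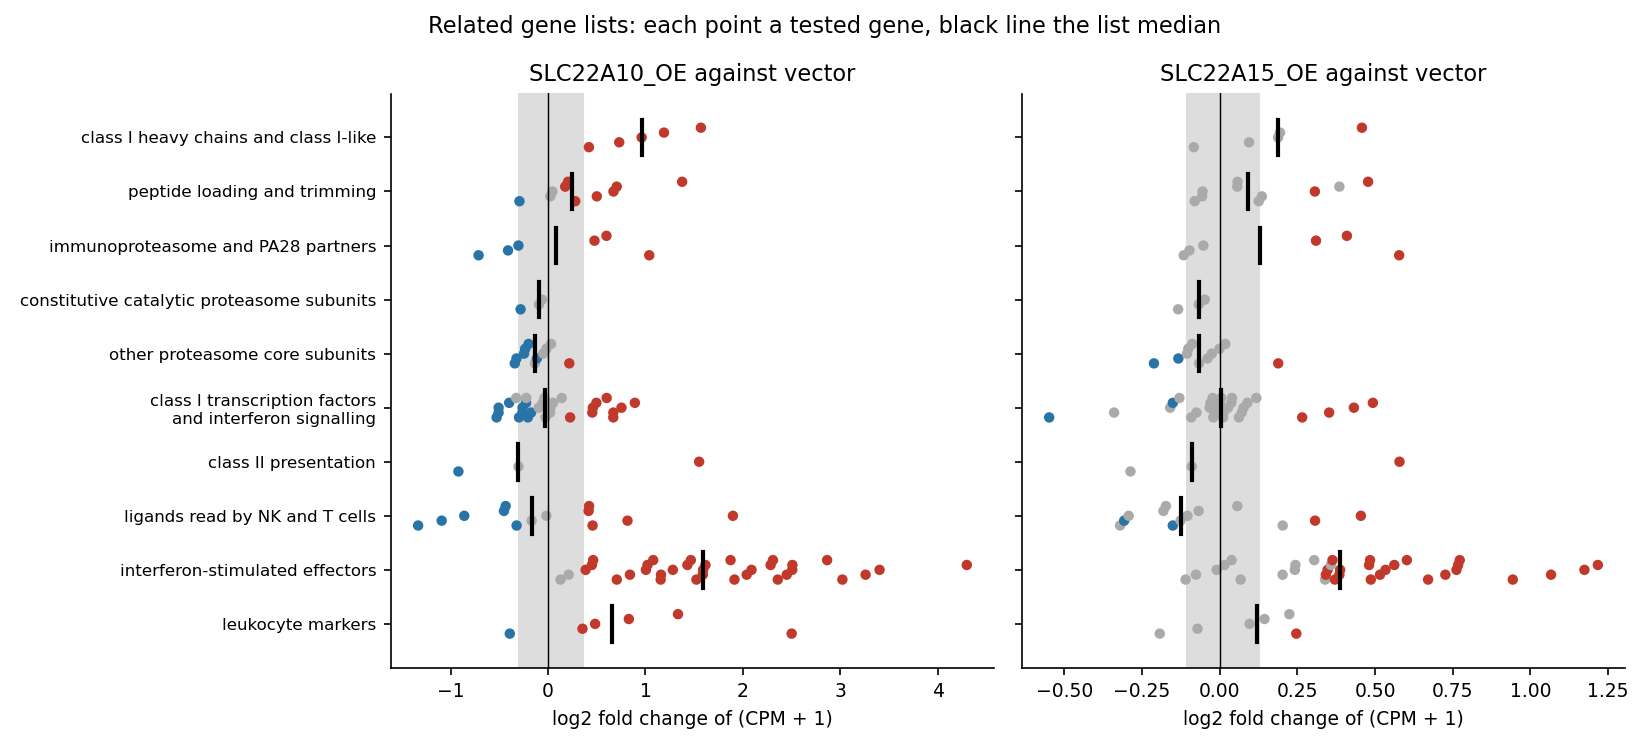
Log2 fold change of (CPM + 1) on the horizontal axis of every tested gene of 10 related lists, in SLC22A10_OE against vector and SLC22A15_OE against vector, which have different axis ranges. Red and blue points passed the test as higher and lower, grey points did not, black lines are list medians and the grey band holds the middle 50% of all genes tested. All 5 class I-like heavy chains lie to the right of 0 in SLC22A10_OE, and the proteasome lists lie on both sides.

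Markers of leukocytes, cells rich in class I, were set beside the members. Of 18 markers looked for 7 had values, and their summed level was 43.5 to 46.8 CPM in SLC22A10_OE, 26.9 to 27.9 CPM in SLC22A15_OE and 22.3 to 25.8 CPM in vector. In SLC22A10_OE against vector 5 of the 6 tested were higher and 1, CSF1R, was lower, a call lost without vector 2, where 34.7% of all genes were higher and 32.5% lower. In SLC22A15_OE against vector 1 of the 6 was higher and 0 were lower, where 10.8% of all genes were higher. CD68 made up most of the sum, with 24.1 ± 0.757 CPM in SLC22A10_OE and 17.0 ± 1.78 CPM in vector, and CD14 had 8.14 ± 0.874 CPM in SLC22A10_OE and 0.612 ± 0.068 CPM in vector (SD, n = 3 each). CD14 reached 1 CPM only in the SLC22A10_OE libraries and SLC22A15_OE 1, so it entered the test through the group in which it was high. PTPRC, CD3D, CD3E and MS4A1 were not analysed here, and none of the 7 was at 0 in all libraries of a group. The endothelial marker CDH5, the single measured gene of 10 endothelial and fibroblast markers, was higher too, at 1.90. Their part in the members' levels was not tested.

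All measured members but B2M lie in the major histocompatibility complex on chromosome 6, between 30489509 (the start of HLA-E) and 33314078 (the far end of TAPBP) on GRCh38.p14. This stretch of 2.82 Mb held 58 other tested genes. In SLC22A10_OE against vector 28 of these were higher and 7 lower, so 60.3% were called, against 67.2% of all genes. Of the 58, 48.3% were higher, against 34.7% of all genes, and 12.1% lower, against 32.5%, with a median log2 fold change of 0.25. DDR1, which encodes a collagen receptor, at 1.59 and CFB, which encodes complement factor B, at 1.53 were among the higher ones, and both were picked after their values were seen. In SLC22A15_OE against vector 7 were higher and 4 lower, so 19.0% were called, against 20.4% of all genes, with a median of 0.074. B2M lies outside the stretch, on chromosome 15.

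Next to the members, changes differed from gene to gene. The nearest tested genes around HLA-B were TCF19, at -0.08 with an adjusted p of 0.596 from limma, and MICA, a ligand of NKG2D, which was lower at -0.43. Around HLA-E, TRIM39 was at -0.15 with an adjusted p of 0.317 from limma and GNL1 was higher at 0.59. On the far side of TAPBP from RGL2, ZBTB22 was higher at 0.41. Beyond TAP2 the nearest tested gene was PBX2, 637 kb away, which was higher at 0.82, against the -0.68 of TAP2. Beyond PSMB9 the nearest was LOC100294145, at -0.15 with an adjusted p of 0.344 from limma. The genes nearest to B2M, SPG11 at 0.32 and RNF4BP at 0.26, were higher, by less than the 0.84 of B2M.

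**Figure D5:**
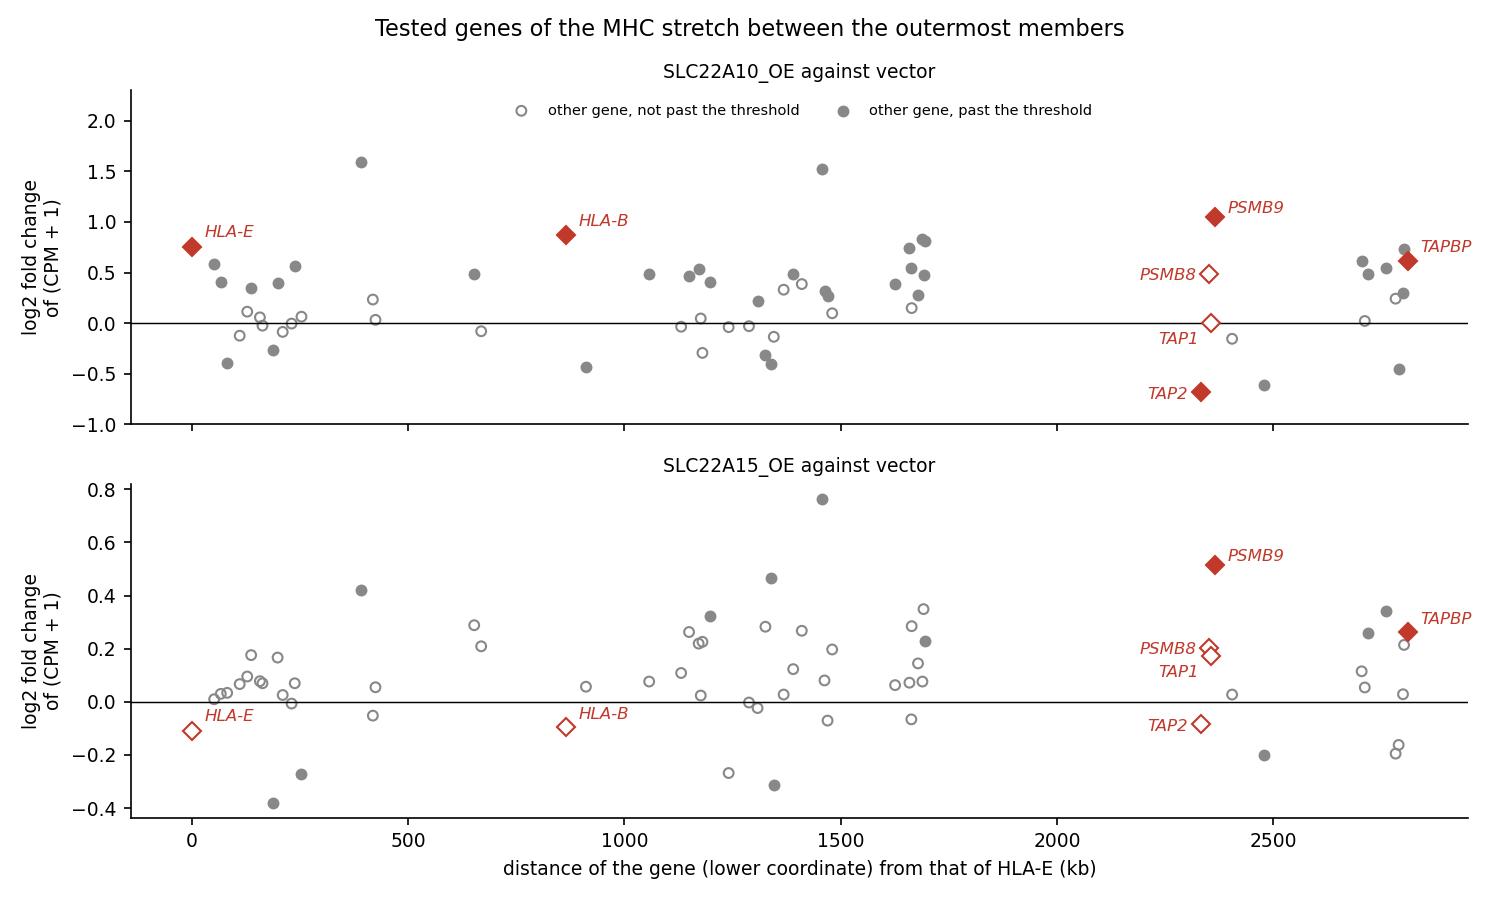
Log2 fold change of (CPM + 1) of genes in the major histocompatibility complex against the distance of the gene's lower coordinate from that of HLA-E in kb, in SLC22A10_OE against vector (top) and SLC22A15_OE against vector (bottom), which have different vertical ranges. Diamonds are members and circles the 58 other tested genes, filled where the test was passed. TAP2, PSMB8, TAP1 and PSMB9 stand side by side between 2332 and 2365 kb, with different values.

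Genes whose profile over the 9 libraries was most like the median profile of the 7 tested members, without PSMB8, were then sought. The measure was the root mean square difference of centred log2(CPM + 1). The search covered 10709 tested genes outside the members with a mean of at least 5 CPM. Genes with clone, antisense or placeholder-type symbols, such as LOC, LINC, FAM and KIAA names, were left out. RAB17, a small GTPase gene, was the nearest with a difference of 0.046, at 51.6 ± 3.41 CPM in SLC22A10_OE, 34.1 ± 1.35 in SLC22A15_OE and 31.6 ± 1.57 in vector (SD, n = 3 each). NKD1, CHDH, CUL7, PRUNE1 and ATRAID followed, with differences of 0.047 to 0.056. For single members the nearest genes were B4GAT1 for HLA-B, GLUL for HLA-E, ERP29 for B2M, SP1 for TAPBP and S100A16 for PSMB9, with differences of 0.044 to 0.088. KAT5 was nearest to TAP1 at 0.11 and RPL9 to TAP2 at 0.14, which were looser matches. Such likeness over 3 groups shows only that the levels lay alike.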

How the data were processed

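RNA-seq libraries of 3 PANC-1 groups were analysed, 3 per group. The authors deposited CPM per gene and library, and per comparison with vector a log2 fold change, a p-value and an FDR, per the file headers. The submitters' processing notes name edgeR, hg38 and mm9 without roles. Aligner, counting program, strand use and annotation were not given in the sources used here. Deposited CPM were whole multiples of 1 read (100% of values within 0.1 read), so reads were recovered. A gene at 1 CPM held 27.8 to 43.4 reads, a counting SD of 15.2% to 19.0%.

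The main test was limma (3.58.1, R 4.3.3) on log2(CPM + 1), with a mean trend, all 9 libraries in 1 fit, 6 residual degrees of freedom, no covariate and two-sided p-values adjusted by Benjamini-Hochberg. Genes with at least 1 CPM in at least 3 libraries were tested, 14554 of 16750. It was tested on simulated data. edgeR (4.0.16) on recovered reads, other filters and pseudocounts, centring, added terms and left-out libraries were alternatives. Poisson and read-ratio intervals cover counting error only.

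Members and the 12 gene lists were chosen with earlier results of these data known. The naming rule took all members, the transduced genes, up to 4 genes per list by smallest adjusted p in SLC22A10_OE against vector, nearest profiles and nearest neighbours. Some genes it covers are not reported here. Of 181 list genes 138 were matched. Columns carry numbers 1 to 3 that cannot be tied to the labels' suffixes. Lengths came from GENCODE release 29, positions from RefSeq on GRCh38.p14.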

Additional observations from a re-analysis of the deposited data

How the results depend on the processing

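Members' log2 fold changes were recomputed under each alternative that gave a value, 375 values in all, of which 359 were counted as the same. For tested members this means the same direction and the same side of the threshold. For PSMB8, which the main test did not cover, it means a shift smaller than the SD of the first group. Some alternatives, such as leaving out a library of the group not compared, cannot move a fold change and act only on its p-value. The exceptions were TAP1, TAP2, TAPBP, PSMB8 and PSMB9. TAP1 in SLC22A10_OE against vector turned to -0.12 with centring, -0.046 with edgeR and -0.22 to 0.13 with 1 library left out. In SLC22A15_OE against vector, TAP1 ran from -0.051 (without vector 2) to 0.30, and TAP2 from -0.21 to 0.054 (without vector 3), with 1 library left out. None of these passed the threshold. In the same comparison TAPBP lost its call without 2 of the libraries in turn and PSMB9 without 4 (adjusted p from limma 0.0508 to 0.0866). The counts of called members were 1 to 3 in SLC22A15_OE against vector with 1 library left out. PSMB8 differences grew with edgeR to 1.32, 0.65 and 0.67 in SLC22A10_OE against vector, SLC22A15_OE against vector and SLC22A10_OE against SLC22A15_OE, since edgeR adds less than 1 CPM before the logarithm. PSMB8, left out by the main filter, was recomputed only without a filter and with edgeR. With at least 5 CPM in 3 libraries, TAP1, TAP2, PSMB8 and PSMB9 gave no value.

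Over all genes, SLC22A15_OE against vector had 2966 calls, 2050 to 3494 with 1 library left out, 5608 with a term for low mitochondrial ribosomal RNA and 4472 with those 3 libraries left out. Centring turned 5047 higher and 4728 lower calls of SLC22A10_OE against vector into 3875 and 6233, and 4674 and 4484 of SLC22A10_OE against SLC22A15_OE into 3713 and 5798. Same-numbered columns did not deviate together in every pair (correlations -0.41 to 0.57), so numbers do not pair libraries. The 3 libraries with low mitochondrial ribosomal RNA did deviate together. Correlations were 0.48 for SLC22A10_OE 3 with SLC22A15_OE 1, 0.52 for SLC22A10_OE 3 with vector 1 and 0.57 for SLC22A15_OE 1 with vector 1. The main fit has no term for this shared deviation. A replicate block gave 9688, 2781 and 9111 calls in SLC22A10_OE against vector, SLC22A15_OE against vector and SLC22A10_OE against SLC22A15_OE, and the same members were called. Few reads limit TAP1, TAP2, PSMB8 and PSMB9.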
